A study of Mus musculus with 4 samples.

Results

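Gene expression was compared between the cells of 2 hashtagged cultures, tag 8 and tag 5, in the second of 2 pooled single-cell RNA-seq experiments on mouse T-cell progenitors. A hashtag is an antibody that carries a short DNA barcode and marks every cell of a culture before cultures are pooled, so that each cell can be traced back. The 8 hashtags of the experiment were numbered 1 to 8 in the order of their columns in the deposited count table. A cell was kept with at least 500 genes detected and under 10% of its unique molecular identifiers (UMIs, each counting 1 captured transcript) from mitochondrial genes. It was given the tag with the highest count where that count was at least 50 and at least 3 times the second. By this rule tag 8 had 855 cells and tag 5 had 988 cells. These were 1843 of the 8335 cells given 1 tag, of 10556 deposited barcodes in the experiment and of 20523 in the series. A further 1879 cells passed the cell filter with no tag.

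The study asked how Runx transcription factors act in the first stage of T-cell development. Bone marrow progenitors of mice that carry a Bcl2 transgene were grown on OP9-Dll1 cells, a mouse stromal line that presents the Notch ligand Dll1, with IL-7 and Flt3-ligand at 10 ng/ml each. On day 2 the cultures received retroviruses, in one design MSCV-Runx1-mCherry or MSCV-empty-mCherry (harvest at 4 or 6 days of culture), and in the other, with Cas9 and Bcl2 transgenic progenitors, guide RNAs against Runx1 and Runx3 (E42-gRunx1-humanNGFR and E42-gRunx3-mTurquoise, with 3 guide pairs for each gene) or against luciferase as a control (E42-gControl-humanNGFR and E42-gControl-mTurquoise, harvest at 5 or 8 days). Mice of the overexpression design were 8 to 10 weeks old. Sorted live cells lacked lineage markers and carried CD45 and the vectors' reporters, and cells of both designs were pooled. Which vector, guide or harvest day each hashtag marked was not given in the sources used here. Tags 8 and 5 are therefore 2 cultures of unknown condition, and no difference between them is assigned to Runx1, to a knockout or to time. Each tag is 1 culture, so there is no spread between cultures, no test and no p-value. All intervals are 95% intervals and cover counting error only. The cells were selected on their hashtag counts, and the pair of tags was chosen by the measured gene expression of these same cells, so the differences below describe these cultures and support nothing further.

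The barcodes that separate the cells of the 2 cultures are shown because every value below rests on them. They are 15 bases long and differ at 12 positions, while the most similar pair among the 8 hashtags differed at 7.
tag 5: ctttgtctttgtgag
tag 8: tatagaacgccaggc
The tag signal was weaker in tag 8, with a median of 135 counts of the highest tag and 11 of the second, against 292.5 and 13.5 in tag 5. Tag 8 was the highest tag in 1199 cells, of which 159 had under 50 counts of it and a further 185 missed the ratio. Tag 5 was highest in 1182 cells, of which 43 and 151 were lost at the same steps. The ratio of highest to second tag just inside and just outside the threshold was 3.02 and 2.95 in tag 8, and 3.03 and 2.96 in tag 5. Depth was similar. Tag 8 held 22272716 UMIs in all, and its median cell had 24902 UMIs from 4401 genes. Tag 5 held 28586057 UMIs, and its median cell had 27474.5 UMIs from 4628 genes. Of the experiment's barcodes, 39 also occurred among the 9967 barcodes of the first experiment.

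As background, progenitors that enter the T lineage under Notch signalling pass through stages marked first by Kit and then by Kit and Il2ra, switch on factors such as Tcf7, Gata3 and Bcl11b, and shut off Spi1 and other progenitor factors. Runx factors bind DNA with their partner Cbfb and act throughout this course. Interferons signal through receptors and Jak kinases to switch on guanylate-binding proteins, immunity-related GTPases and antigen presentation genes.

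UMIs were summed over the cells of each tag and given as counts per 1000000 UMIs (CPM). The ratio of both values was taken for the 7040 genes whose mean over both tags was 10 CPM or more. Most genes were close to even, with a median log2 ratio of -0.0016 and 84.4% of genes between ratios of 0.8 and 1.25. A gene is called higher or lower below where it differed by at least 2-fold. Of the 7040 genes, 80 (1.14%) were higher in tag 8 and 96 (1.36%) were lower, 176 (2.5%) in all. The shares of 1.14% and 1.36% are the background for the list counts below. At least 4-fold differences were fewer, with 18 genes higher and 14 lower. The interval of the ratio excluded 1 for 46.2% of the genes, most of them with small differences. Of the 80 higher genes tag 8 was the highest of the 8 tags for 38 and tag 5 the lowest for none, and of the 96 lower genes tag 8 was the lowest for 20 and tag 5 the highest for 25. Both tags lay within the range of the other 6 tags for 42 of the higher and 54 of the lower genes. These genes were selected by their ratio of tag 8 to tag 5, which in part sets such ranks. The same counts over all measured genes were not taken.

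**Figure D1:**
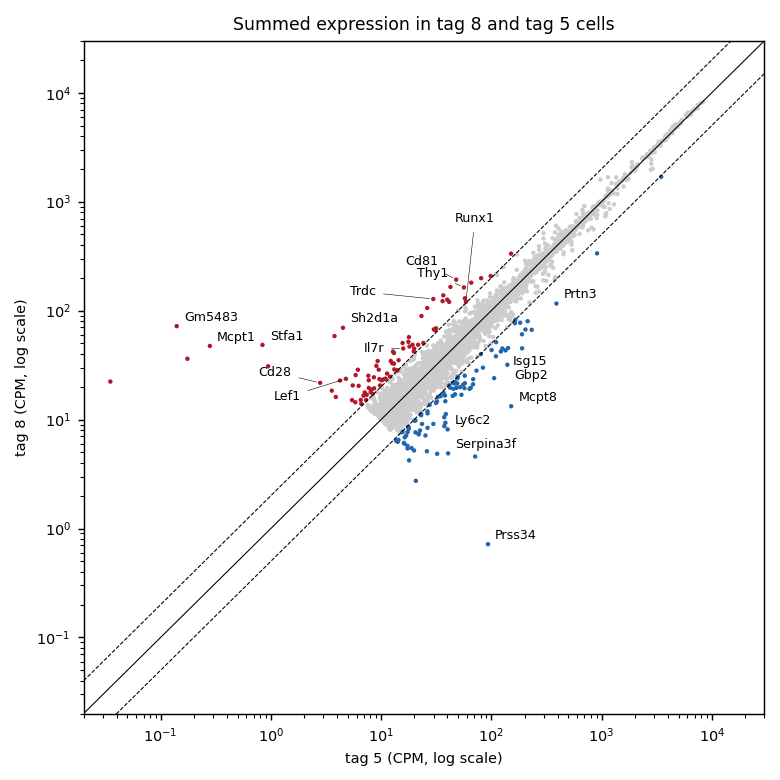
Summed expression of the 7040 measured genes in tag 5 (x axis) and tag 8 (y axis), both in CPM on log scales. The solid line is equal expression and the dashed lines mark a 2-fold difference. The 80 genes higher in tag 8 are red and the 96 lower genes are blue, with Sh2d1a and Cd28 above the cloud and Gbp2 and Isg15 below it.

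Runx1 itself, a gene of chromosome 16 (92601466 to 92826074, GRCm38.p6), was higher in tag 8. Its level in tags 1 to 8 was 57.5, 33.7, 52.9, 39.5, 58.8, 102.1, 86.7 and 120.9 CPM. Tag 8 had the highest level of the 8 and tag 5 the fourth highest. The ratio was 2.05 (1.93 to 2.18). Runx1 had a UMI in 81.6% of tag 8 cells and 71.0% of tag 5 cells, and in 39.5% and 24.6% after each cell was thinned to 5000 UMIs to even out depth (828 and 961 cells, with 27 shallower cells left out of each tag). Stromal-marker cells were cells outside tags 8 and 5 in which collagen and other stromal genes held at least 1% of UMIs. They had Runx1 in 55.3% after thinning, so they are no reference for cells that lack it. The Runx1 ratio was 2.06 without cells of other lineages, among them tag 8 and tag 5 cells with stromal genes. It was just short of 2-fold after thinning (1.94) and with a tag of at least 100 counts and 5 times the second (1.99). Over all changes of tag call, cells, scaling and weighting tried, the Runx1 ratio ran from 1.78 to 2.20. Transcripts of a Runx1 vector and of the mouse gene are not told apart by these counts. None of the other members passed 2-fold. Runx3 was at 144.7 CPM in tag 8 and 127.2 CPM in tag 5 (ratio 1.14, 1.08 to 1.19), Runx2 had a ratio of 0.975 (0.868 to 1.09) and Cbfb, the shared partner, 1.13 (1.04 to 1.24). Cbfa2t3, a corepressor that works with early blood factors, was at 61.2 and 87.8 CPM (ratio 0.697, 0.652 to 0.745). Of the 5 measured genes of the Runx list, 1 was higher and none lower.

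T-lineage factors were skewed to tag 8. Of the 8 measured, 4 were higher and none lower, against 1.14% of all measured genes, and the median log2 ratio was 0.83. Lef1, a factor of the same family as Tcf7, had levels of 1.25, 2.96, 4.80, 22.3, 4.79, 7.37, 15.7 and 23.7 CPM in tags 1 to 8. Tags 4, 7 and 8 were high and the other 5, tag 5 among them, were low. The ratio of tag 8 to tag 5 was 4.94 (4.08 to 6.00). Tox, a nuclear factor of developing T and innate lymphoid cells, was at 32.6 CPM against 13.1 CPM (ratio 2.49, 2.20 to 2.83). Ets1 was at 23.7 against 10.98 CPM (ratio 2.16, 1.88 to 2.49). The Ets1 ratio was 1.87 by the mean over cells and 1.83 after thinning, and that of Bcl11b 1.65 and 1.92, which leaves 2 of the 8 past 2-fold in either setting.
Bcl11b, the factor of T-lineage commitment, had 2.04, 15.6, 12.8, 128.5, 10.1, 4.75, 63.4 and 22.9 CPM in tags 1 to 8. Tag 8 exceeded tag 5 by 2.26-fold (1.96 to 2.63), yet both were far below tags 4 and 7. Tcf7 and Gata3, which come on earlier, differed less. Tcf7 was at 95.2 and 65.0 CPM (ratio 1.46, 1.38 to 1.56) and Gata3 at 39.5 and 33.0 CPM (ratio 1.20, 1.09 to 1.31). The E proteins Tcf12 and Tcf3 had ratios of 1.41 and 0.974.

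Genes of the T-cell receptor and its signalling were also skewed to tag 8. Of the 10 measured, 3 were higher, against 1.14% of all measured genes, and none lower, with a median log2 ratio of 0.62. Trdc, the constant region of the delta chain, had 16.3, 24.0, 47.8, 97.9, 29.8, 27.8, 185.4 and 127.9 CPM in tags 1 to 8. Tag 8 was second to tag 7, and tag 5 lay among the 5 low tags. The ratio was 4.30 (3.98 to 4.64), and a Trdc UMI was found in 30.4% of thinned tag 8 cells, 10.5% of tag 5 cells and 1.27% of stromal-marker cells. Before thinning the shares were 45.1% and 26.4%. Cd3d, a chain of the CD3 complex, was at 48.6 against 19.3 CPM (ratio 2.52, 2.27 to 2.79), and Cd247, the zeta chain, at 23.5 against 9.66 CPM (ratio 2.44, 2.10 to 2.83). By the mean over cells these 2 ratios were 1.84 and 1.94, so that Trdc alone passed 2-fold. Cd3g was at 112.2 against 79.2 CPM (ratio 1.42, 1.34 to 1.499), while tags 4 and 7 held 742.5 and 632.8 CPM. Lck, the kinase that starts receptor signalling, was at 77.9 against 90.8 CPM (ratio 0.857, 0.806 to 0.911).
The gamma chain genes, looked at after these values were seen, had the same direction as Trdc. Tcrg-C1 was at 333.3 against 151.0 CPM (ratio 2.21, 2.13 to 2.29) and Tcrg-C4 at 122.2 against 36.1 CPM (ratio 3.38, 3.15 to 3.63). By the mean over cells and after thinning the Tcrg-C1 ratio was 1.93 and 1.99, short of 2-fold, and that of Tcrg-C4 was 2.87 and 2.76. Whether reads were split between these related constant regions was not tested. Dntt, which adds bases at receptor gene joints and was also chosen after its values were seen, was at 126.0 against 39.8 CPM (ratio 3.16, 2.95 to 3.39). Rag1, which cuts the receptor genes, was at 14.7 against 1.47 CPM (ratio 10.0, 7.25 to 14.2), below the level at which genes were called.

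**Figure D2:**
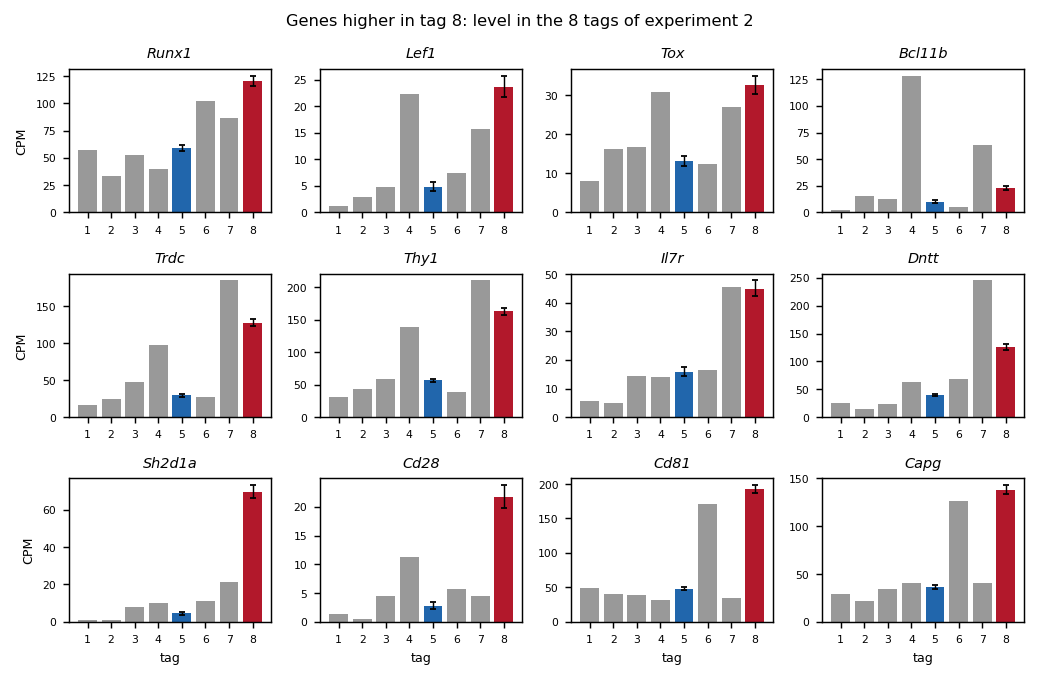
Level of 12 genes higher in tag 8, in CPM (y axis), in each of the 8 tags (x axis). Tag 8 is red, tag 5 blue and the other 6 tags grey, and the error bars on tags 8 and 5 are exact 95% Poisson intervals. Trdc, Thy1, Il7r and Dntt were also high in tag 7, Cd81 and Capg in tag 6, and Sh2d1a stood above all other tags in tag 8, at 69.5 CPM.

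Among surface markers of early T stages, 4 of 11 measured genes were higher and 1 was lower, against 1.14% and 1.36% of all measured genes. The median log2 ratio of the list was 0.37. Thy1, a marker that appears on entry into the T lineage, was at 31.0, 43.5, 58.3, 138.1, 56.4, 39.3, 210.5 and 163.1 CPM in tags 1 to 8. Tags 4, 7 and 8 were high, and tag 8 exceeded tag 5 by 2.89-fold (2.73 to 3.07). Cd28, a costimulatory receptor, was at 21.7 against 2.80 CPM (ratio 7.76, 6.12 to 9.96), and Cd2, an adhesion receptor, at 22.8 against 4.23 CPM (ratio 5.39, 4.41 to 6.63). Both were highest in tag 8. Cd7, a receptor of early lymphoid cells, was the lower one, at 51.3 against 110.6 CPM (2.15-fold lower, 2.01 to 2.31). Its ratio of 0.464 was 0.614 without cells in which dendritic cell genes held at least 0.5% of UMIs. That cut was chosen after the data were seen.
Il2ra, the marker of the second stage, was just short of the threshold, at 251.1 against 128.7 CPM (ratio 1.95, 1.87 to 2.03). A UMI of Il2ra was found in 41.1% of thinned tag 8 cells against 26.1% of tag 5 cells and 2.11% of stromal-marker cells. Kit, which is high in the labelled stage, was near even at 29.7 and 31.8 CPM (ratio 0.936, 0.845 to 1.03), as was Cd44 (ratio 1.01, 0.922 to 1.11). The leukocyte marker Ptprc, which encodes CD45 and was added later, had a ratio of 1.16 (1.11 to 1.21). Il7r, the receptor for one of the 2 added cytokines, was at 44.9 against 15.9 CPM (ratio 2.83, 2.53 to 3.17), and at 45.5 CPM in tag 7.

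Since Il2ra-positive cells were a larger share of tag 8, the comparison was repeated within 2 classes of cells, a split chosen after the data were seen. With no Il2ra UMI there were 431 tag 8 and 619 tag 5 cells, and with at least 2 Il2ra UMIs 383 and 303. The Trdc ratio was 1.10 among cells without Il2ra and 3.26 among cells with it. For Thy1 the 2 ratios were 1.27 and 2.19, and for Bcl11b 1.65 and 1.61. They were 1.23 and 1.63 for Tcrg-C1, 1.76 and 2.55 for Tcrg-C4, and 0.440 and 0.614 for Cd7. Lef1 was high in tag 8 in both classes, at 4.23 and 3.79, and Runx1 kept ratios of 1.78 and 2.20. Cd3d and Cd247 had ratios of 4.74 and 3.43 in cells without Il2ra, at levels under 10 CPM, so that no member of the T-cell receptor list was called there, and 1.73 and 1.63 in cells with it. How far the share of Il2ra-positive cells sets the T-lineage differences was not tested beyond these values.

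Sh2d1a, on chromosome X (42502565 to 42522097), encodes the adaptor SAP of the SLAM receptors. It was at 1.05, 1.02, 7.87, 10.3, 4.51, 11.3, 21.1 and 69.5 CPM in tags 1 to 8. Tag 8 stood above all other tags, and the ratio to tag 5 was 15.4 (12.9 to 18.6). A UMI of it was found in 265 tag 8 cells and 40 tag 5 cells. After thinning these were 19.1% (16.5 to 21.9%) and 1.35% (0.722 to 2.30%), and the latter was near the 0.844% of stromal-marker cells. Its ratio was 12.4 in cells without Il2ra and 10.8 in cells with it. The unnamed gene 5830411N06Rik had the same ratio, 15.4 (12.7 to 19.0), with 58.4 CPM in tag 8 and 17.9 CPM in tag 7 as the next highest. Inpp4b, a lipid phosphatase, was at 18.4 against 3.57 CPM (ratio 5.16, 4.14 to 6.47). Ctla4, an inhibitory receptor, was at 28.6 against 6.16 CPM (ratio 4.65, 3.93 to 5.53), with 31.2 CPM in tag 7. The Ctla4 ratio was 0.915 in cells without Il2ra and 3.27 in cells with it. Inpp4b and Ctla4 were chosen after their values were seen.

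Some of the named genes were high in tags 6 and 8 and not in tag 7, and were picked out after this was seen. Cd81, a tetraspanin, was at 49.7, 41.0, 39.5, 32.1, 48.0, 171.1, 35.2 and 192.6 CPM in tags 1 to 8. Only tags 6 and 8 were high, and the ratio to tag 5 was 4.01 (3.78 to 4.27). Capg, an actin-capping protein, had 126.5 and 138.0 CPM in tags 6 and 8 and between 21.4 and 40.3 CPM in the other 6 tags (ratio 3.76, 3.51 to 4.04). Cox4i2, a cytochrome oxidase subunit added in the same way, was at 174.6, 28.4 and 129.7 CPM in tags 6, 7 and 8 against 57.5 CPM in tag 5 (ratio 2.25, 2.12 to 2.40). Of the homing genes, 2 of 10 were higher, against 1.14% of all measured genes, and none lower. Ccr7, a chemokine receptor of lymph node homing, had 41.8, 9.52 and 44.8 CPM in tags 6, 7 and 8 against 20.0 CPM in tag 5 (ratio 2.24, 2.02 to 2.49). Klf2, which drives egress genes, had 30.3, 14.2 and 40.8 CPM in the same tags against 13.1 CPM in tag 5 (ratio 3.12, 2.76 to 3.53). Socs2, a feedback inhibitor of cytokine signalling, was instead highest in tags 7 and 8, at 88.0 and 105.7 CPM against 26.2 CPM in tag 5 (ratio 4.04, 3.71 to 4.39).

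Genes of the interferon response were lower in tag 8. All 11 measured genes had ratios under 1, 6 were at least 2-fold lower and none higher, and the median log2 ratio was -1.38, against 1.36% of all genes called lower. The summed level of the list in tags 1 to 8 was 417, 642, 1061, 1093, 1267, 1383, 538 and 514 CPM. Tags 3 to 6 were thus high, and tags 1, 2, 7 and 8 were low. Gbp2, a guanylate-binding protein, was at 6.33, 10.6, 113.5, 61.3, 139.8, 197.2, 21.0 and 31.8 CPM in tags 1 to 8. Tag 8 did not reach the lowest of tags 3 to 6, and it was 4.39-fold below tag 5 (4.05 to 4.76). Isg15, a ubiquitin-like protein, was at 43.2 against 134.5 CPM (3.12-fold lower, 2.90 to 3.35). Irf7 was 2.60-fold lower (2.30 to 2.95), Gbp3 3.32-fold (2.98 to 3.69) and Oasl2 2.97-fold (2.49 to 3.54). Irf1, at 49.7 against 98.5 CPM, was just short of the threshold (1.98-fold lower, 1.85 to 2.13). Bst2, Irf9, Stat2 and Ifi27l2a had ratios of 0.520, 0.617, 0.571 and 0.701.

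**Figure D3:**
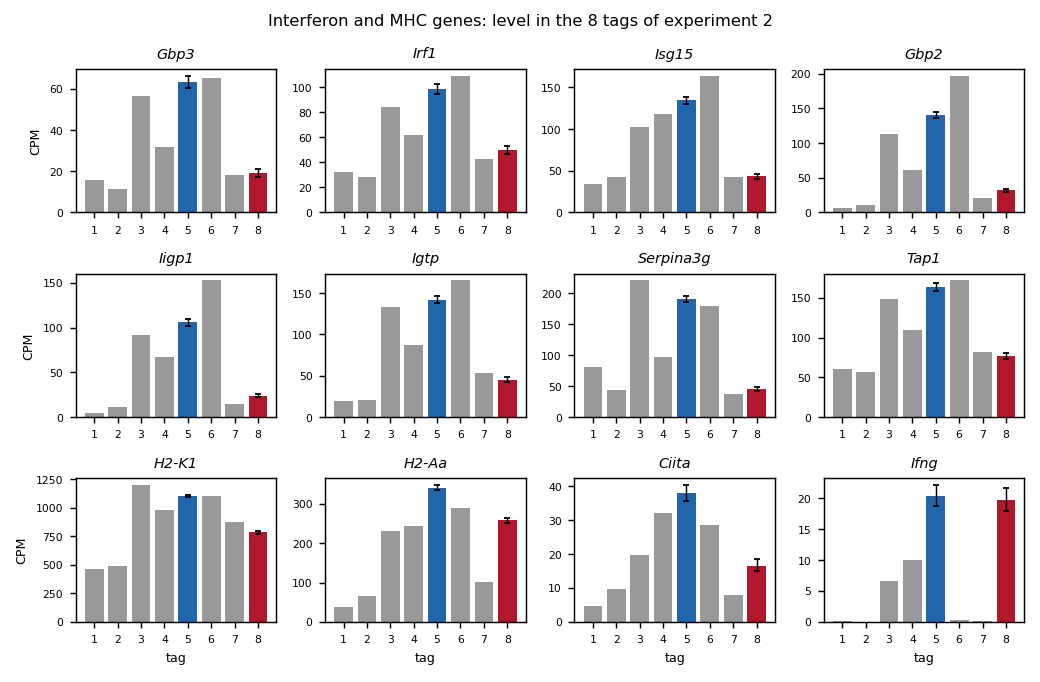
Level of 12 interferon, antigen presentation and related genes, in CPM (y axis), in each of the 8 tags (x axis). Tag 8 is red, tag 5 blue and the other tags grey, with exact 95% Poisson intervals on tags 8 and 5. Gbp2, Gbp3, Iigp1 and Igtp were high in tags 3 to 6 and low in tags 1, 2, 7 and 8, whereas Ifng was alike in tags 5 and 8.

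Interferon-inducible GTPases were looked at as a list after these values were seen. Of 13 measured, 12 were at least 2-fold lower, against 1.36% of all measured genes, Gbp2 and Gbp3 of the interferon list among them. The summed level of the list was 333 CPM in tag 8 and 1023 CPM in tag 5. Iigp1 was at 24.0 against 106.0 CPM (4.42-fold lower, 4.03 to 4.86), Igtp at 45.3 against 142.0 CPM (3.13-fold, 2.92 to 3.36) and Irgm1 at 21.1 against 68.3 CPM (3.24-fold, 2.93 to 3.59). Gbp8 was the remaining one, 1.95-fold lower. Among the 15 genes with the largest ratios, Serpina3f and Serpina3g, a pair of serpins, were 8.28-fold (6.80 to 10.2) and 4.22-fold (3.94 to 4.52) lower, at 4.89 against 40.5 CPM and 45.0 against 190.0 CPM. These GTPases and serpins are near-identical copies in part, so their separate counts are uncertain.
The difference was spread over many cells. After thinning, a cell of tag 8 held a median of 2 UMIs of the interferon list and a cell of tag 5 held 6. No UMI of the list was found in 16.5% of tag 8 cells and 2.19% of tag 5 cells. Gbp2 was found in 11.6% (9.49 to 14.0%) of thinned tag 8 cells and 40.3% (37.2 to 43.4%) of tag 5 cells, and before thinning in 31.7% and 74.8%. Stromal-marker cells had Gbp2 in 44.7% and are therefore no reference for its absence. Within cells without Il2ra the Gbp2 ratio was 0.263 and within Il2ra-positive cells 0.246, so its side did not change with that split.

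**Figure D4:**
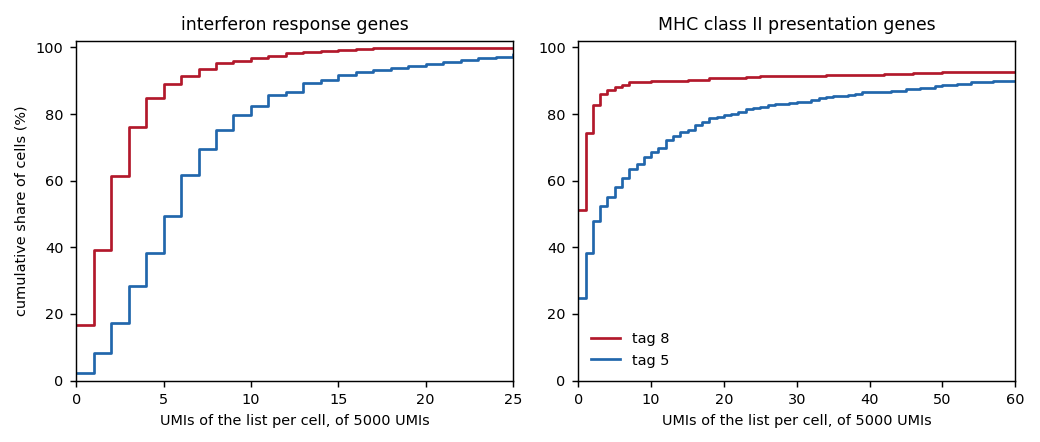
Cumulative share of cells (y axis, %) by the number of UMIs of a gene list in a cell thinned to 5000 UMIs (x axis), for tag 8 in red and tag 5 in blue. On the left, the curve of the interferon response list rose earlier in tag 8, where the median was 2 UMIs against 6. On the right, 51.3% of tag 8 cells and 24.8% of tag 5 cells held no UMI of 10 MHC class II presentation genes, a list chosen after the values were seen, and a few cells beyond the axis limits are not drawn.

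Receptors, kinases and an inhibitor of the pathway, all but Ifngr1 looked at after these values were seen, lay on both sides of 1, and none passed 2-fold. Ifngr1 and Ifngr2, the interferon gamma receptor chains, had ratios of 1.37 and 1.51, and Ifnar1 and Ifnar2, those for type I interferons, 1.33 and 0.759. Jak1 and Jak2 had ratios of 1.07 and 0.909, and the inhibitor Socs1 1.22. Ifng, the ligand, was at 19.7 CPM in tag 8 and 20.4 CPM in tag 5. Its UMIs came from 4 cells of tag 8 and 7 cells of tag 5, and 5 cells held 99.7% of those in tag 5. It was at or below 0.374 CPM in tags 1, 2, 6 and 7.

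Class I antigen presentation was lower to a smaller degree. All 9 measured genes had ratios under 1, and 2 were at least 2-fold lower, against 1.36% of all measured genes. The median log2 ratio of the list was -0.56. Tap1, a peptide transporter, was at 76.7 against 163.7 CPM (2.13-fold lower, 2.02 to 2.26), and H2-Q7 at 79.9 against 213.4 CPM (2.67-fold, 2.53 to 2.82). Class I heavy chains are close relatives, and reads of H2-Q7 may be shared with others. The main chains moved less. B2m was at 733 against 1082 CPM (1.48-fold lower, 1.45 to 1.504) and H2-K1 at 784 against 1104 CPM (1.41-fold, 1.38 to 1.43).
Class II genes showed a gap between level and share of cells. H2-Aa was at 258.3 against 340.9 CPM (1.32-fold lower, 1.28 to 1.36), but a UMI of it was found in 12.2% of thinned tag 8 cells against 43.8% of tag 5 cells, and in 9.70% of stromal-marker cells. The tag 8 share was thus close to that of stromal-marker cells, which were not shown to lack the gene. Without thinning the shares were 18.7% and 60.5%. Cd74, the invariant chain, was found in 18.5% and 53.3% of thinned cells and in 26.2% of stromal-marker cells. Of 10 class II presentation genes, a list drawn up after these values were seen, 4 were at least 2-fold lower and none higher. Over all measured genes 1.36% were lower. The median log2 ratio of the list was -0.53. Ciita, the master regulator of class II genes, was at 16.6 against 38.0 CPM (2.29-fold lower, 2.03 to 2.58), and H2-DMb1, which loads peptides, at 38.1 against 110.1 CPM (2.89-fold, 2.68 to 3.12). The other lower ones were H2-DMa and H2-DMb2, with ratios of 0.499 and 0.318. H2-Oa and H2-Ob, which restrain that loading, had ratios over 1, at 1.27 (1.12 to 1.43) and 1.54 (1.30 to 1.83). Dendritic cells express all of these, and 5 cells held 16.9% of the H2-Aa UMIs of tag 8 against 6.05% in tag 5. Without cells in which the dendritic list held at least 0.5% of UMIs, which left 778 and 822 cells, the ratio of Ciita went from 0.437 to 0.113 and that of H2-DMb1 from 0.346 to 0.167. This cut was chosen after the data were seen, and it removes cells by their class II genes.

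Promoter sequences from RefSeq (GRCm38.p6, the build that the submitters' processing notes name) were searched on both strands for TGTGGT, the core bound by Runx factors, in the 300 bases around each start (250 before, 50 after). Of the 80 higher genes 52 had a promoter in the table, and 16 (30.8%) held the motif. Of the 96 lower genes 76 had one, and 22 (28.9%) held it. The share was 14.7% of the 5617 measured genes and 18.9% of all 27025 genes in the table. Motifs of the interferon response were added after the values were seen. They were the interferon-stimulated response element (ISRE, here TTTC, any 2 bases and TTTC again) and the gamma-activated site (TTCNNNGAA). The ISRE was present for 19 lower genes (25%) and 1 higher gene (1.92%), against 4.02% of measured and 3.99% of all genes. The gamma-activated site was present for 21.1% of lower and 11.5% of higher genes, against 8.24% of measured and 9.55% of all genes. Of the 6 lower genes of the interferon response list, 5 had a promoter. The ISRE was present for 3 of these 5 and the gamma-activated site for none. Promoters of a gene family resemble one another, so these genes are not independent. A match of letters is not evidence that a factor binds.
The 4 promoters below show what these matches look like. Trat1, a T-cell adaptor gene chosen after its values were seen, was higher in tag 8 (32.8 against 12.6 CPM, ratio 2.60, 2.29 to 2.96). The other 3 genes were lower in it, Gbp2 and Isg15 of the interferon response list and Igtp of the GTPases looked at later. Each is given 5′ to 3′ on the strand of the gene and covers the 250 bases before the start, and capitals mark a motif on either strand. Positions give the first base of a match, counted back from the start.
Trat1, chr16:48772063-48772312, minus strand: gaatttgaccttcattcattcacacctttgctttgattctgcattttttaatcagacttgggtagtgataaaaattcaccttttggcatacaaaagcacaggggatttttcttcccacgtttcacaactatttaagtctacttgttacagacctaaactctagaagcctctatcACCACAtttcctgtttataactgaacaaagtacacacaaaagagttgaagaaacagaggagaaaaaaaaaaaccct
Gbp2, chr3:142620413-142620662, plus strand: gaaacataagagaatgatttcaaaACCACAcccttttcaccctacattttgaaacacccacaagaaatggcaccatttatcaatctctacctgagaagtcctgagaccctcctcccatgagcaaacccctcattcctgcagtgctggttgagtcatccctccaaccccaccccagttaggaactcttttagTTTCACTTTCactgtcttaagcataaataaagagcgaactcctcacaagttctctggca
Isg15, chr4:156200819-156201068, minus strand: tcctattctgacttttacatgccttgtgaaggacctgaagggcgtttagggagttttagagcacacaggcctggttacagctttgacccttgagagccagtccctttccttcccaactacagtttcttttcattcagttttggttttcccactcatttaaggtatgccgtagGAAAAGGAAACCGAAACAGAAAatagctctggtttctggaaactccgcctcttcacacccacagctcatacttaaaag
Igtp, chr11:58199306-58199555, plus strand: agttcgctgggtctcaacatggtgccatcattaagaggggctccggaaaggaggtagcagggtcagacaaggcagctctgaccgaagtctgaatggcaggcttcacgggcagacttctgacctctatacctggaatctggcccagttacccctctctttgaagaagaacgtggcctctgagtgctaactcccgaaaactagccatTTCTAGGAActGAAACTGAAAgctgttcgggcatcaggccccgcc
Trat1 has a Runx core at -76. Gbp2 has a Runx core at -226 and an ISRE at -59. Isg15 has 3 overlapping ISRE matches at -78, -72 and -66, and Igtp has a gamma-activated site at -45 beside an ISRE at -34. The matches mark a Runx core in genes of both directions.

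**Figure D5:**
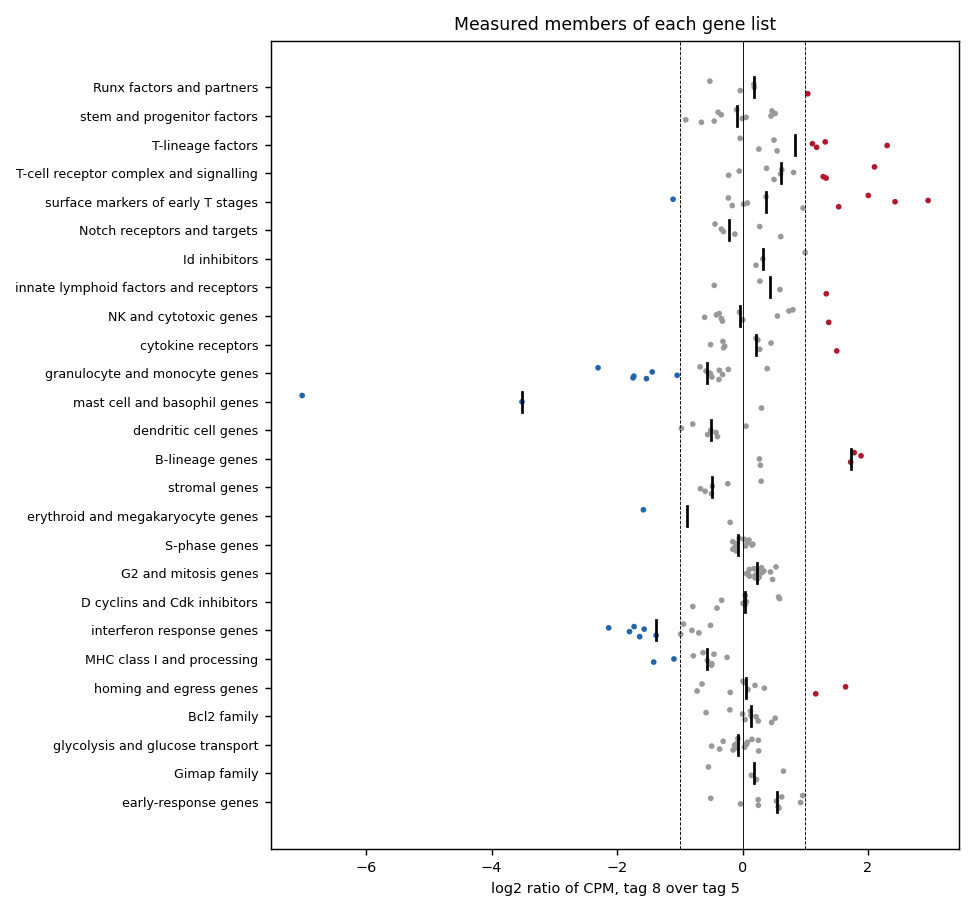
Log2 ratio of tag 8 over tag 5 (x axis) of each measured member of 26 gene lists (y axis), with the median of each list as a black bar and the 2-fold limits as dashed lines. Members at least 2-fold higher in tag 8 are red and those at least 2-fold lower are blue. Interferon response genes lie to the left with a median of -1.38, T-lineage factors to the right with a median of 0.83, and S-phase and glycolysis genes lie near 0.

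Genes of other lineages also differed, although the sort excluded lineage-marked cells, and many of their UMIs came from few cells. Of 16 measured granulocyte and monocyte genes, 15 had ratios under 1, 6 were at least 2-fold lower and none was higher. Over all measured genes 1.36% were lower. The median log2 ratio of the list was -0.56. Prtn3, a granule protease, was at 116.1 against 389.5 CPM (3.35-fold lower, 3.21 to 3.50), and Ngp, a secondary granule protein, at 335.3 against 910.1 CPM (2.71-fold, 2.65 to 2.78). The Prtn3 ratio, 0.298, was 0.178 with a tag of at least 100 counts and 5 times the second. With another tag-calling method (HTODemux) it was 0.455. By that method Elane (0.607), Ms4a3 (0.529) and Cebpe (0.750) were short of 2-fold, and 3 of the 6 genes stayed lower. In tag 8 the 5 cells with the most UMIs held 63.8% of Ngp, and in tag 5 they held 29.8%. Cells with at least 0.5% of UMIs from this list were 32 in tag 8 (3.74%, 2.57 to 5.24%) and 74 in tag 5 (7.49%, 5.93 to 9.31%). Without cells of other lineages, 1 granulocyte gene was lower and Ngp had a ratio of 1.06, whereas Prtn3 had 0.216. None of the 11 measured stem and progenitor factors passed 2-fold, and their median log2 ratio was -0.10. Ratios were over 1 for 4 of them, up to 1.43, and under 1 for 7, down to 0.534. Spi1, which drives myeloid fates and is shut off in T-cell commitment, was at 165.6 against 261.1 CPM (1.58-fold lower, 1.52 to 1.64) and Hhex at 47.2 against 88.5 CPM (1.87-fold lower, 1.74 to 2.02).
Mast cell and basophil genes went both ways and rested on still fewer cells. Of 3 measured members of the list, 2 were lower, Prss34 and Mcpt8, and Cpa3 had a ratio of 1.23. Prss34, a basophil protease, was at 0.718 against 93.3 CPM, and 5 cells held 79.1% of its UMIs in tag 5. Cells with at least 0.5% of UMIs from the list numbered 1 in tag 8 and 8 in tag 5. B-lineage genes were higher for 3 of 5 measured, against 1.14% of all measured genes. Vpreb1, of the pre-B receptor, was at 34.4 against 9.31 CPM and Cd79a at 25.3 against 7.66 CPM. There were 20 such cells in tag 8 (2.34%, 1.43 to 3.59%) and 2 in tag 5 (0.202%, 0.0245 to 0.729%). The ratios of Vpreb1 and Cd79a, 3.70 and 3.30, moved with the tag call. They were 1.79 and 2.10 with a tag of at least 100 counts and 5 times the second. With HTODemux they were 7.13 and 6.39. Without cells of other lineages they were 0.866 and 0.995. None of the 4 mature T-cell genes reached a mean of 10 CPM. The 3 genes with the largest ratios at a mean level of 20 CPM or more, Gm5483, Mcpt1 and Stfa1, rested on 14, 7 and 8 cells of tag 8 and describe those cells. Mcpt1 is a mast cell protease, at 47.4 against 0.280 CPM. Mcpt4, another one and chosen after its values were seen, was at 22.3 against 0.0350 CPM, all of it in 1 cell of each tag.
T-lineage and interferon genes still differed without these cells. Cells were left out with at least 0.5% of UMIs from the granulocyte, mast cell, B-lineage, stromal or erythroid and megakaryocyte list. They were 132 tag 8 and 190 tag 5 cells (15.4% and 19.2%). The erythroid and megakaryocyte list held that share in 66 and 91 cells, and whether these were of another lineage was not tested. The dendritic list was not used for this cut. The ratio was then 4.10 for Trdc, 4.15 for Lef1, 14.8 for Sh2d1a, 0.304 for Isg15 and 0.188 for Gbp2.

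In the remaining lists few members passed 2-fold. None of the 16 S-phase genes was past 2-fold (median log2 ratio -0.07). The same was true of the 16 G2 and mitosis genes, all of which had ratios over 1 (median 0.24), among them Mki67 at 1.39 (1.34 to 1.45). Of the 6 measured Notch genes none was past 2-fold. Notch1 had a ratio of 1.52 (1.41 to 1.65), and its targets Hes1 and Myc had 0.809 and 0.738. Ccnd2, a D cyclin, was at 145.5 against 252.1 CPM (1.73-fold lower, 1.66 to 1.81), and the 9 cyclin and Cdk inhibitor genes had a median of 0.04. NK and cytotoxic genes had a median of -0.05, with 1 of 11 higher, the receptor chain Klrd1 at 46.8 against 18.1 CPM (ratio 2.59, 2.33 to 2.88). Of the 4 measured innate lymphoid genes, Pdcd1 was higher at 19.5 against 7.73 CPM (ratio 2.52, 2.14 to 2.98), and Zbtb16 stayed at 3.95 and 2.83 CPM. The median of the innate lymphoid list was 0.43. Early-response genes, which follow recent stimulation, had a median of 0.55, with 8 of 10 over 1 and none past 2-fold. Dendritic cell genes had a median of -0.51, with none of 7 past 2-fold. Of the 2 measured erythroid and megakaryocyte genes, Itga2b, a platelet integrin, was lower at 7.32 against 21.9 CPM (2.99-fold lower, 2.51 to 3.58). Bcl2 family, glycolysis and Gimap genes had medians of 0.13, -0.08 and 0.18 with no member past 2-fold, and 80 cytosolic ribosomal protein genes had a median of 0.02.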

How the data were processed

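Single-cell mRNA and hashtag libraries were prepared with 10x Chromium version 3, per the labels' protocols. The submitters' processing notes name Cell Ranger 3.0.0 and the builds mm10 and GRCm38 without saying which step each served. The mRNA values used are raw UMI counts per gene and cell, as deposited by the authors without normalization. The hashtag values are raw counts per barcode and hashtag, and whether they count molecules or reads was not given in the sources used here. Every deposited barcode was present in both tables, and 342 of 10556 were removed by the cell filter. Of 31053 gene IDs, 30934 matched the gene name table. Hashtag doublets were excluded by the ratio rule only, and cells of high depth were left out in one alternative.

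The members and gene lists were chosen with earlier results of these data known. UMIs were summed per tag and divided by the tag's total (CPM). Ratios have exact conditional 95% intervals, levels exact Poisson intervals and shares of cells exact Clopper-Pearson intervals, all for counting error only. A gene counted 0 in a tag was set to a floor of 3 counts and its ratio taken as a bound, while genes with 1 to 3 counts kept their ratio. Genes were named from the lists (members past 2-fold and anchors), plus the 15 largest ratios in each direction at a mean level of 20 CPM or more. Genes and lists added once values were known are marked in the text. Where 2 IDs shared a symbol, the ID with more UMIs was used. Scripts were tested on simulated counts. Alternatives changed the tag call (Seurat 5.3.0 HTODemux among them), the cell filter, scaling (edgeR 4.0.16 TMM, DESeq2 1.42.0 size factors), weighting, depth, cells and thresholds. The first experiment was not used, apart from its barcodes. The values of 1 gene are not reported here, although it stays in the counts over all genes and lists. Python 3.11.15 with scipy 1.17.1 and R 4.3.3 were used.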

Additional observations from a re-analysis of the deposited data

How the results depend on the processing

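The comparison has 1 culture a side, so the values say nothing of the spread between cultures. No paired analysis was possible because each tag is 1 culture without replicates. The numbers of genes higher (80) and lower (96) in tag 8 were within 1.5 times of these under every tag call, cell filter, scaling, weighting and choice of cells tried, and moved with the thresholds. They were 17 and 24 at a mean of at least 50 CPM, 685 and 642 with only 10 UMIs required over both tags, 191 and 230 at a fold of 1.5, and 33 and 33 at a fold of 3. Scaling by TMM and by DESeq2 size factors shifted all log2 ratios by -0.0014 and -0.0056. Of 89 named genes past 2-fold, between 74 and 89 stayed past it under each other change of cells, scaling or weighting, and 63 and 61 in cells without Il2ra and with at least 2 Il2ra UMIs. Of the 80 higher and 96 lower genes, 30 and 56 were also called in cells without Il2ra, and 40 and 54 in cells with at least 2 Il2ra UMIs.

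Interferon genes lower in tag 8 (6) numbered 10 with HTODemux (975 and 911 cells), 3 at 50 CPM, 12 with 10 UMIs and 10 at a fold of 1.5. Granulocyte genes lower (6) numbered 3 with HTODemux, 1 without cells of other lineages, 3 at 50 CPM, 3 at a fold of 3 and 10 in cells with at least 2 Il2ra UMIs. T-lineage factors higher (4) numbered 2 by the mean over cells and 2 after thinning (without Bcl11b and Ets1), 0 at 50 CPM, 1 at a fold of 3, and 1 in each Il2ra class. T-cell receptor genes higher (3) numbered 1 by the mean over cells, 1 at 50 CPM, 7 with 10 UMIs, 6 at a fold of 1.5, 1 at a fold of 3 and 0 in cells without Il2ra. Ratios changed side without cells of other lineages for Cebpe (1.502), Ngp (1.06), Prss34 (1.05), Cd79a (0.995), Vpreb1 (0.866) and Vpreb3 (0.875), which that alternative removes by construction. They also did in cells without Il2ra for Ctla4 (0.915), and in cells with at least 2 Il2ra UMIs for Elane (1.34), Ly6c2 (1.22) and Vpreb1 (0.726). The cause of the other changes was not tested, except that a higher minimum tests fewer genes (2622 at 50 CPM).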
